A study of Mus musculus with 36 samples.

Results

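Bulk messenger RNA of the hippocampus was compared between Tau mice and wild type mice after training in the Morris water maze, in which mice learn the place of a hidden platform. The comparison holds 9 of the 36 libraries of the study, chosen by the genotype and training state in their labels: 4 labelled Tau trained and 5 wild type controls, called WT trained here. Every mouse was a female of 6 months on a C57BL/6 background and carried Pvalb-IRES-Cre (PV_Cre) and the RiboTag allele, controls included. Tau mice also carried the PS19 transgene, human tau with the P301S mutation, in heterozygous form. The 4 Tau naive and 6 WT naive libraries, from mice of the same genotypes kept in the home cage, are given beside the trained ones. Mice of all 4 groups were handled for 3 minutes on each of 3 days beforehand. Trained mice then swam 6 trials a day for 5 days and had a memory test, the probe trial, 24 hours after the last of them, and tissue was taken 2 hours later. The transgene is driven by the prion protein promoter, so it is not limited to 1 cell type. The RNA is the input fraction, a cleared lysate of both hippocampi with no selection of tagged ribosomes, and so is not limited to parvalbumin interneurons.

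Tau, the product of Mapt, binds and stabilises microtubules, mainly in axons. P301S is a mutation of inherited frontotemporal dementia, and in PS19 mice tau becomes hyperphosphorylated and aggregates in neurons, with glial activation and later neuron loss. Splicing of neuronal transcripts depends on SR proteins, which bind exons, on the CLK kinases that phosphorylate them, and on nuclear speckles, the bodies in which these proteins are stored. Myelin is made by oligodendrocytes, which keep forming in the adult brain, also during learning.

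Total counts were 69.2 to 110.2 M (M for mega) in the Tau trained and 74.5 to 97.7 M in the WT trained libraries. All 16 pairs of libraries within a trained group differed beyond sampling noise (chi-square over degrees of freedom 13.3 to 142.3). The labels give sample numbers but no mouse, so p-values here reflect the spread between libraries, which may in part be technical. Levels are CPM, counts per M counts of the TMM-scaled library total.

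Prnp, the mouse prion protein gene, whose promoter drives the transgene, checks the labels. Whether transgene reads were counted to Prnp was not tested. Prnp stood at 2142, 1759, 2052 and 846 CPM in Tau trained replicates 1 to 4, and at 768, 743, 781, 794 and 849 CPM in WT trained replicates 1 to 5. The first 3 Tau libraries lay far above the controls and replicate 4 lay inside their range, so it is called the library labelled Tau trained replicate 4 where a direction rests on it. With all libraries the log2 change of Prnp was 1.11 (standard error 0.137, adjusted p = 8.56e-05, edgeR's quasi-likelihood test). Without replicate 4, which was left out for its Prnp level, the log2 change was 1.34, a value that the choice fixes in part and that is given without a test. Prn is a transcript that joins Prnp to the neighbouring doppel gene and may share reads with Prnp. It stood at 72.8, 71.5, 68.9 and 56.0 CPM in Tau trained and at 45.3, 45.4, 49.2, 52.1 and 53.4 CPM in WT trained libraries. Here all 4 Tau libraries lay above the controls, replicate 4 by the least, and the log2 change was 0.46 (standard error 0.0743, adjusted p = 0.00471, edgeR's quasi-likelihood test). Because the reads may be split between both genes, Prn is uncertain as a separate transcript.

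The start region of Prnp is shown because it is the promoter type that the transgene uses, and Prn has the identical window in the RefSeq table. It is the mouse sequence, 250 bases before to 50 after the start, from RefSeq GRCm38.p6, chr2:131909678-131909977, plus strand.
Prnp and Prn: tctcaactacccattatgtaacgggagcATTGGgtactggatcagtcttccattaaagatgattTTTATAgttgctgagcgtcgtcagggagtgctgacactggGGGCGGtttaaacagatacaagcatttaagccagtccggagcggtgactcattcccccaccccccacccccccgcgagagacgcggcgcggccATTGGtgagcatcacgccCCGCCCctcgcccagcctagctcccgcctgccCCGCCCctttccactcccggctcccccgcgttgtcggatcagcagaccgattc
Capitals mark matches on either strand to GGGCGG (3 matches), CCAAT (2 matches) and TATAAA (1 match), none of which overlap. Of all 32817 windows of the same length in that table, 35.6% hold GGGCGG, 37.4% hold CCAAT and 13.6% hold TATAAA.

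5 further transcripts were taken as marks of the Tau line with earlier results of these libraries known. They are therefore no independent check of the labels. These are the processed pseudogene Lamr1-ps1 and the predicted genes Gm32754, Gm32875, Gm6214 and 4930590L14Rik, whose functions are unknown. Their summed counts were 419, 251, 399 and 0 in Tau trained replicates 1 to 4, and 0, 0, 0, 3 and 0 in WT trained replicates 1 to 5. The library labelled Tau trained replicate 4 thus had no read of any of these transcripts, while all 5 were counted in each of the other 3. Mapt itself did not check the labels, with 577, 538, 542 and 536 CPM in Tau trained and 512, 536, 581, 543 and 547 CPM in WT trained libraries. These overlap fully (log2 change 0.01, adjusted p = 0.943, edgeR's quasi-likelihood test). Whether reads of the human transgene were counted to Mapt was not tested.

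Of 25382 genes tested, 77 were called by edgeR's quasi-likelihood test with all 9 libraries, at an adjusted p under 0.05 (0.303%). In Tau trained libraries 25 were higher (0.0985%) and 52 were lower (0.205%), and 3870 genes had an unadjusted p under 0.05 (15.2%). Repeated without replicate 4, 32 of 25391 genes passed (0.126%), 17 higher (0.067%) and 15 lower (0.0591%). Both fits called 28 of these genes, 14 in each direction, 49 were called with all libraries only, and 4 without replicate 4 only. The 28 shared genes include Prnp and 4 of the line transcripts, whose calls in the repeat the choice of library fixes in part. Without them, 9 higher and 14 lower genes remain. With conventional names, the higher ones are Prn, Dnttip2, Enpp6, Fancf, Zfp536, Phf20 and Pcyox1, and the lower ones Rrp1b, Rbm10, Tra2a, Jmjd6, Ncoa5, Dnajb5, Smpd4, Cfp and Nt5c3b. As Prn may share reads with Prnp, the choice of library may fix its call in the repeat in part as well.

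The number of calls rests on single libraries. Without Tau trained replicate 1, only 3 genes were higher and 0 lower, without replicate 2 there were 10 and 8, and without replicate 3 there were 4 and 2. Without WT trained replicate 1 the counts were 4 and 2, without replicate 2 they were 4 and 8, without replicate 3 they were 14 and 29, and without replicate 4 they were 12 and 21. Leaving out WT trained replicate 5 raised them to 138 higher and 222 lower, and all 77 genes remained called. Prnp, Lamr1-ps1 and Dnttip2 passed in each of the 9 fits that left out 1 library. For Prnp and Lamr1-ps1 the fit without Tau trained replicate 4 is no independent pass, as that library was left out for its Prnp level. Prn and Rrp1b passed in 8 of the 9, missing without Tau trained replicate 1, Jmjd6 in 7, and Rbm10, Ncoa5 and Dnajb5 in 6. For Prn, which may share reads with Prnp, the pass without Tau trained replicate 4 may not be independent either.

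**Figure D1:**
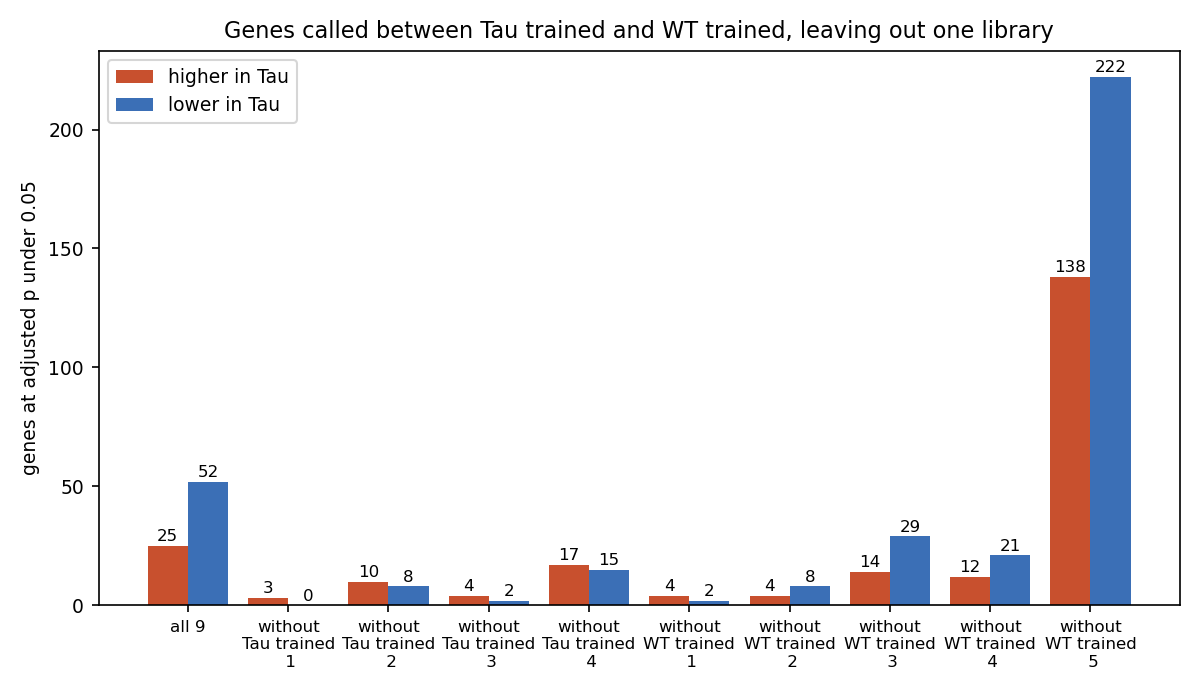
Genes past an adjusted p of 0.05 between Tau trained and WT trained libraries (vertical axis, number of genes; red, higher in Tau; blue, lower) with all 9 libraries and with each library left out in turn (horizontal axis). The counts run from 3 higher and 0 lower without Tau trained replicate 1 to 138 and 222 without WT trained replicate 5.

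Genes of a pair of nucleolar proteins moved in opposite directions. Dnttip2, a nucleolar protein of the machinery that processes ribosomal RNA for the small subunit, rose 1.8-fold, and Rrp1b, a nucleolar protein homologous to a yeast ribosomal RNA processing factor, fell to 0.652 of the WT level. Dnttip2 stood at 23.3, 22.8, 23.4 and 19.8 CPM in Tau trained and at 11.2, 11.6, 11.7, 12.5 and 14.9 CPM in WT trained libraries. All 4 Tau libraries lay above all controls, the library labelled Tau trained replicate 4 included (log2 change 0.85, standard error 0.13, adjusted p = 0.00267, and 0.90 with adjusted p = 0.00146 without replicate 4, edgeR's quasi-likelihood test). Rrp1b stood at 8.6, 10.7, 10.3 and 9.73 CPM in Tau trained and at 15.2, 14.3, 14.7, 18.4 and 12.8 CPM in WT trained libraries. The groups did not overlap and replicate 4 lay among the other Tau libraries (log2 change −0.62, standard error 0.104, adjusted p = 0.00637, and −0.61 with adjusted p = 0.0211 without replicate 4). Among the alternatives to the repeat without replicate 4, Dnttip2 passed in 19 of 20 and Rrp1b in 14 of 20. Of the 41 ribosome biogenesis and nucleolar genes listed, no other passed, and the median log2 change was 0.02.

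**Figure D2:**
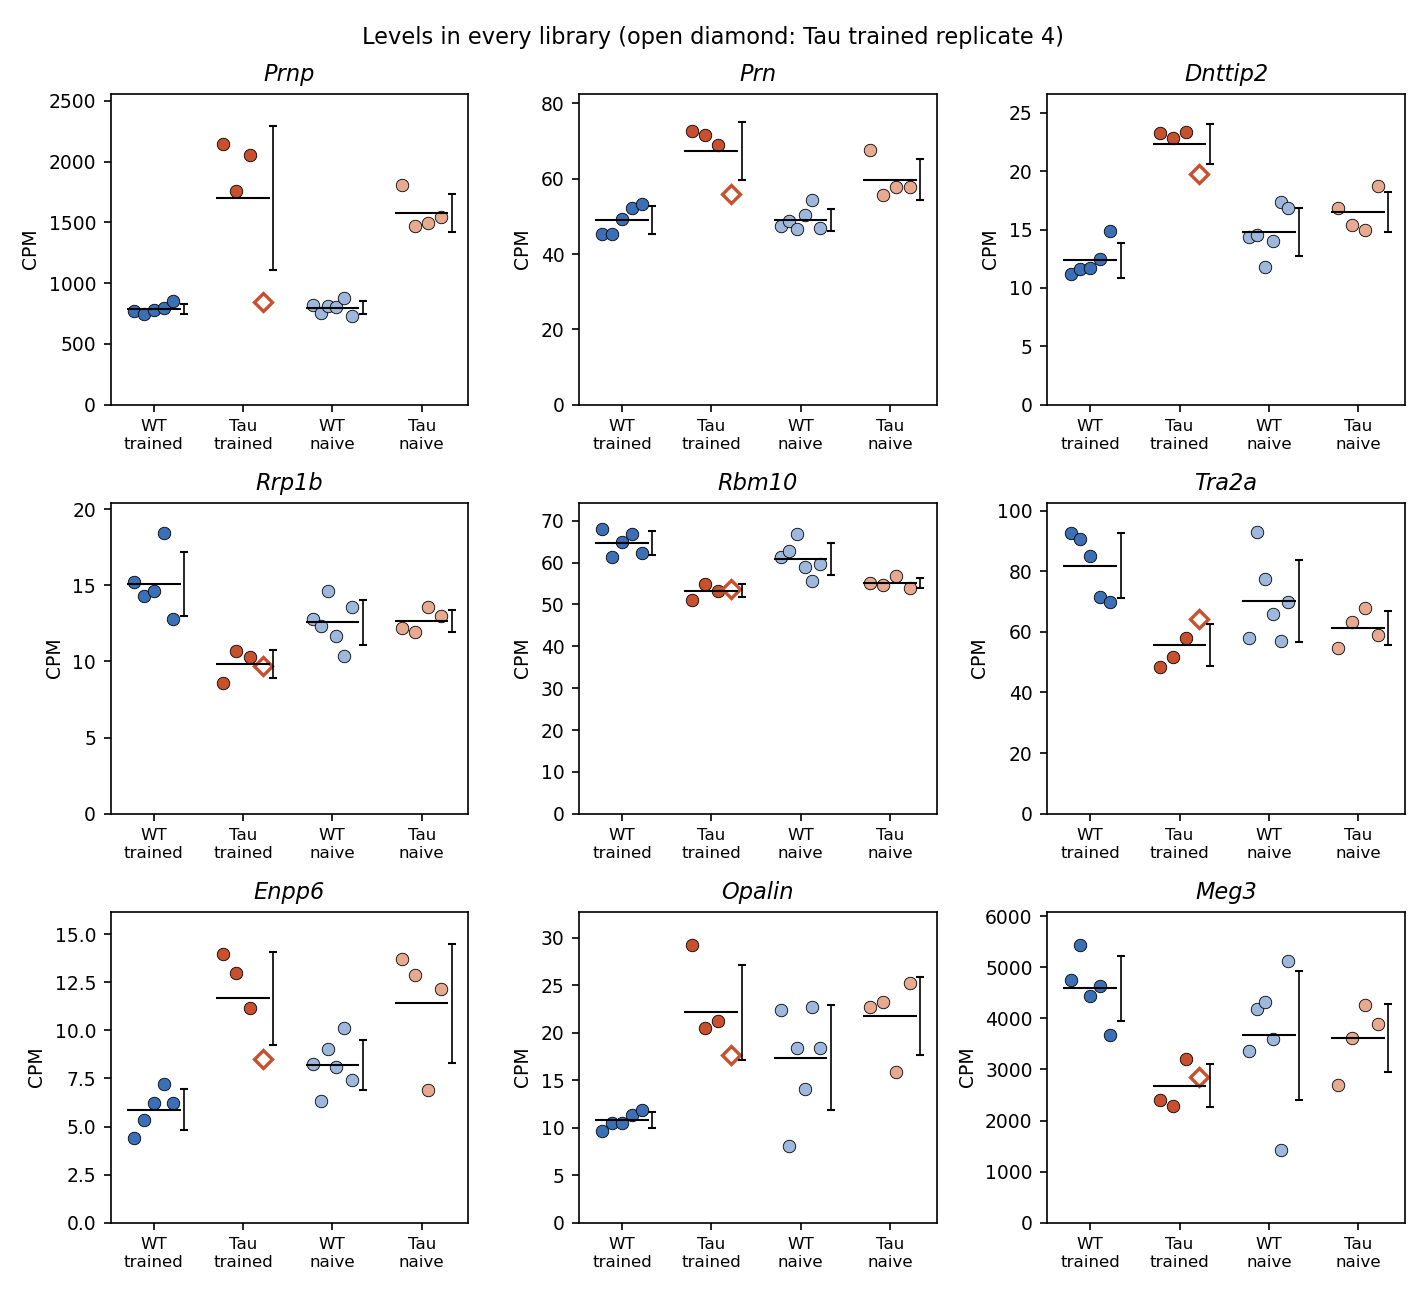
CPM (vertical axis) of 9 genes in every WT trained, Tau trained, WT naive and Tau naive library. Horizontal lines are means, bars the SD, and the open diamond is the library labelled Tau trained replicate 4, which lies with the controls for Prnp at 846 CPM but above all WT trained libraries for Dnttip2 at 19.8 CPM.

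Genes for splicing factors and nuclear speckle proteins lay lower in the trained Tau hippocampus. Of 52 listed, 43 had a log2 change below 0, against 50% of all genes tested, and the median was −0.29 both with and without replicate 4. Rbm10, Tra2a, Acin1 and Clk3 fell past the threshold with all libraries, Rbm10 and Tra2a also without replicate 4, and none rose. At an unadjusted p under 0.05, 35 were lower and 1 was higher, where 8.6% and 6.64% of all genes tested met the same rule. In 23 of the 52, all 4 Tau libraries lay below all 5 controls, as did 4.04% of all genes tested. In naive libraries 44 of the 52 lay below 0 as well, against 50.2% of all genes tested, with a smaller median of −0.08, and 6 were lower at an unadjusted p under 0.05 (4.44% of all genes). The list was drawn up with earlier results of these libraries known, so its direction is not independent evidence.

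Rbm10, an RNA-binding regulator of exon skipping, stood at 51.2, 54.9, 53.3 and 53.7 CPM in Tau trained and at 68.0, 61.2, 65.0, 66.9 and 62.2 CPM in WT trained libraries. The groups were narrow and did not overlap (log2 change −0.28, standard error 0.0511, adjusted p = 0.0132, and 0.0316 without replicate 4, edgeR's quasi-likelihood test). Tra2a, an SR-related activator of exon inclusion, stood at 48.4, 51.8, 58.1 and 64.1 CPM in Tau trained and at 92.7, 90.5, 84.9, 71.6 and 69.7 CPM in WT trained libraries. The library labelled Tau trained replicate 4 was nearest to the controls and WT trained replicates 4 and 5 nearest to the Tau libraries (log2 change −0.56, standard error 0.124, adjusted p = 0.0393, and −0.63 with adjusted p = 0.0438 without replicate 4). Acin1, a member of the exon junction-associated ASAP complex, stood at 117 to 129 CPM in Tau trained and at 144 to 167 CPM in WT trained libraries (log2 change −0.38, adjusted p = 0.0242). Clk3, a kinase of SR proteins, stood at 40.1 to 42.2 against 47.0 to 57.4 CPM (log2 change −0.35, adjusted p = 0.0487). Neither pair of groups overlapped, and both calls were lost without replicate 4 (adjusted p = 0.078 for Acin1 and 0.108 for Clk3).

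**Figure D3:**
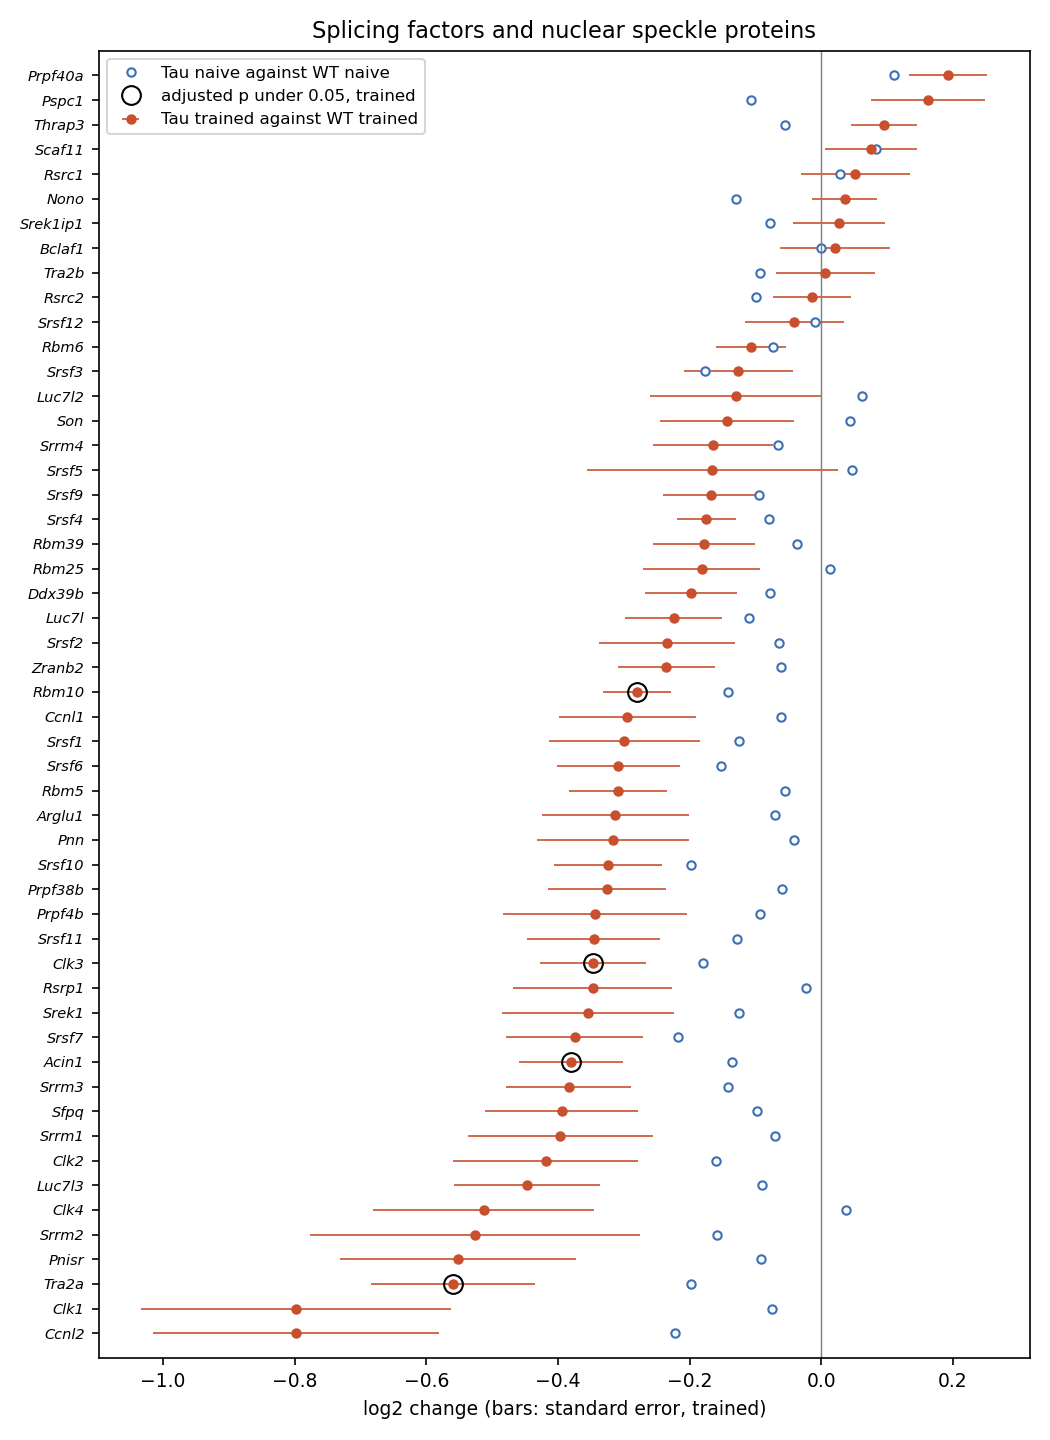
Log2 change (horizontal axis) of each of the 52 listed splicing factor and nuclear speckle genes between Tau and WT, filled for trained libraries with bars of 1 standard error, open for naive libraries. The 4 ringed genes, Rbm10, Clk3, Acin1 and Tra2a, passed an adjusted p of 0.05 in the trained comparison, and 43 of the 52 trained values lie below 0.

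The WT trained libraries differed among themselves along the same axis. The list score, the mean log2 CPM of its members relative to all 36 libraries, was −0.12, −0.14, −0.06 and −0.08 in Tau trained replicates 1 to 4 and 0.27, 0.26, 0.10, 0.07 and 0.01 in WT trained replicates 1 to 5. The groups did not overlap, and WT trained replicates 1 and 2 stood highest. WT naive libraries spanned −0.26 to 0.15 and Tau naive libraries −0.18 to 0. WT naive replicate 5 alone set the low end, and the other WT naive libraries ran from −0.09 to 0.15. Tau trained replicates 1 and 2 lay below those others, and Tau trained replicates 3 and 4 inside their range. The scores of WT trained replicates 1 and 2 lay above all WT naive libraries. WT trained replicates 1 and 2 carry library numbers 2 and 5, close to the numbers 3, 4, 8 and 9 of the Tau trained libraries, whereas WT trained replicates 3, 4 and 5 carry numbers 14, 18 and 26. Without WT trained replicates 1 and 2, only 1 gene of the whole table stayed higher and 0 lower, and the list's median was −0.17. Without WT trained replicates 3, 4 and 5 there were 54 higher and 247 lower, and its median was −0.38.

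The change was uneven over the other RNA-processing genes. Of 31 heterogeneous nuclear ribonucleoprotein genes, 17 lay above and 14 below 0 with a median of 0.02. At an unadjusted p under 0.05, 8 were lower and 4 higher, where 8.6% and 6.64% of all genes met that rule, and Hnrnph1, a regulator of splice site choice, fell. It stood at 167 to 184 CPM in Tau trained and 198 to 242 CPM in WT trained libraries, which do not overlap (log2 change −0.33, adjusted p = 0.0487, and 0.0814 without replicate 4, edgeR's quasi-likelihood test). Spliceosome core subunits had 0 of 37 members past the threshold and a median of 0.02, with 4 higher and 3 lower at an unadjusted p under 0.05. Among 26 factors of mRNA cleavage and export, Nxf1, the main mRNA export receptor, fell, at 63.6 to 70.1 against 86.2 to 103 CPM (log2 change −0.49, adjusted p = 0.0246, and 0.0814 without replicate 4). The median of that list was −0.04.

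13 nuclear long noncoding RNAs gave no call, with a median of −0.15 (−0.30 without replicate 4, and 0.04 without WT trained replicate 2). Meg3, an imprinted noncoding RNA abundant in neurons, stood at 2398, 2284, 3201 and 2845 CPM in Tau trained and at 4742, 5438, 4437, 4625 and 3677 CPM in WT trained libraries. The groups did not overlap, and the adjusted p was 0.109 (log2 change −0.77, standard error 0.231, edgeR's quasi-likelihood test). That test takes its spread from all 8 groups, not from these controls alone. Miat, a nuclear noncoding RNA known to bind splicing factors, stood at 429 to 594 against 647 to 959 CPM, without overlap and with an adjusted p of 0.103. In WT naive libraries Meg3 ran from 1416 to 5113 CPM, wider than the gap between the trained groups.

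Mettl3, Ints13, Taf1a and Mat2a fell with all libraries. Mettl3, the catalytic subunit of the m6A methyltransferase, stood at 14.5 to 16.1 against 18.8 to 22.3 CPM (log2 change −0.38, adjusted p = 0.0229, edgeR's quasi-likelihood test). Ints13, a subunit of the Integrator complex, stood at 20.2 to 22 against 26.7 to 29.7 CPM (log2 change −0.42, adjusted p = 0.0288). Both separated the groups fully with all libraries. Taf1a, a subunit of the RNA polymerase I initiation factor, fell by 0.52 on the log2 scale (adjusted p = 0.041), and Mat2a, which makes the methyl donor S-adenosylmethionine, by 0.34 (adjusted p = 0.0475). These 4 genes were named after their values were seen, and none passed without replicate 4, with adjusted p-values of 0.0645 to 0.11.

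Jmjd6, a hydroxylase that acts on splicing factors, and Ncoa5, a nuclear receptor coregulator, changed by small steps with little spread. Jmjd6 stood at 18.4, 17.9, 19.4 and 18.3 CPM in Tau trained and at 23.6, 22.6, 23.5, 23.7 and 21.9 CPM in WT trained libraries. Every Tau library lay below every control, replicate 4 among them (log2 change −0.32, standard error 0.0569, adjusted p = 0.0121, and 0.0316 without replicate 4). Ncoa5 stood at 46.1 to 47.0 against 55.8 to 59.9 CPM, again with no overlap (log2 change −0.31, adjusted p = 0.0132, and 0.0361 without replicate 4). Dnajb5, a co-chaperone of Hsp70, stood at 101 to 121 against 130 to 166 CPM (log2 change −0.47, adjusted p = 0.0156, and 0.031 without replicate 4). Dnajb5 is no member of the list of 32 heat shock proteins and chaperones, of which none passed, with a median of −0.08.

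Among genes with a conventional name and an average of at least 0 log2 CPM, the largest falls were those of Noxred1, Fndc8, Cfp and Dmpk. Below that level, Zglp1 and Ppef2 had log2 changes of −1.255 and −1.17 (adjusted p = 0.0336 and 0.0242), and both calls were lost without replicate 4 (adjusted p = 0.0851 and 0.0645). Zglp1 and Ppef2 were picked with their values known. Noxred1, an oxidoreductase-domain gene, stood at 0.471 to 0.65 against 1.18 to 2.77 CPM (log2 change −1.68, adjusted p = 0.0242, edgeR's quasi-likelihood test). Fndc8, a fibronectin type III domain gene, stood at 0.899 to 1.23 against 1.58 to 3.23 CPM (−1.38, adjusted p = 0.0192), with WT trained replicate 5 well below the other controls. Cfp, properdin, which stabilises the alternative complement convertase, stood at 3.54, 3.27, 4.96 and 5.63 against 7.36 to 11.7 CPM (−1.24, adjusted p = 0.0242, and 0.0316 without replicate 4). No pair of groups overlapped. Dmpk, the myotonic dystrophy kinase, stood at 7.74 to 10.7 CPM in Tau trained and at 25, 22.6, 15.9, 16.3 and 10.7 CPM in WT trained libraries, so WT trained replicate 5 almost met the Tau range (−1.01, adjusted p = 0.0242). Without replicate 4 the calls of Noxred1, Fndc8 and Dmpk were lost, at adjusted p-values of 0.0647, 0.0508 and 0.078.

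Smpd4 and Nt5c3b fell with and without replicate 4, and Pla2g4b, Tmem86b, Aoc2, Crhr1 and Ptpn2 with all libraries only. Smpd4, a neutral sphingomyelinase, stood at 50.4, 52.3, 56.5 and 64.1 against 101, 86.9, 86.5, 107 and 75.5 CPM (log2 change −0.71, standard error 0.151, adjusted p = 0.0288, and 0.0438 without replicate 4). Pla2g4b, a cytosolic phospholipase A2, fell by 0.83 and Tmem86b, which cleaves lysoplasmalogens, by 0.92 (adjusted p = 0.0242 and 0.0441). Both calls were lost without replicate 4, at adjusted p-values of 0.0771 and 0.0752. Aoc2, an amine oxidase, fell by 0.73, and Crhr1, the receptor of corticotropin-releasing hormone, named after its values were seen, by 0.56. The latter stood at 10.5 to 11.6 against 12.1 to 21.4 CPM, with WT trained replicate 4 highest, and both were lost without replicate 4 (adjusted p = 0.0903 and 0.101). Ptpn2, a tyrosine phosphatase that dampens cytokine signalling, also named after its values were seen, stood at 23.4 to 26.9 against 31.6 to 37.9 CPM (−0.47, adjusted p = 0.0279, and 0.0569 without replicate 4). Nt5c3b, a nucleotidase of methylated nucleotides, stood at 25.7 to 28.1 against 30.4 to 34.5 CPM (−0.28, adjusted p = 0.0229, and 0.027 without replicate 4).

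Enpp6, a choline phosphodiesterase that marks newly forming oligodendrocytes, rose 1.99-fold, and genes of mature myelin lay higher with it. Enpp6 stood at 14, 13, 11.2 and 8.49 CPM in Tau trained and at 4.41, 5.33, 6.25, 7.20 and 6.24 CPM in WT trained libraries. All Tau libraries lay above all controls, the library labelled Tau trained replicate 4 by the least (log2 change 0.99, standard error 0.206, adjusted p = 0.0242, and 1.12 with adjusted p = 0.0216 without replicate 4, edgeR's quasi-likelihood test). Of 14 oligodendrocyte precursor genes listed, 13 lay above 0, against 50% of all genes tested, with a median of 0.14. Enpp6 was the 1 that passed. In bulk tissue, more cells of a type and more RNA per cell cannot be told apart.

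Of 24 myelin and mature oligodendrocyte genes, 23 had a log2 change above 0, against 50% of all genes tested, with a median of 0.38 (0.46 without replicate 4). None passed over all genes with all libraries, while 17 were higher at an unadjusted p under 0.05, where 6.64% of all genes met that rule. Without replicate 4, Aspa, the enzyme that releases acetate from N-acetylaspartate in oligodendrocytes, rose. It stood at 19.8, 17.9, 17.4 and 11.8 CPM in Tau trained and at 9.38, 10.8, 11.0, 11.3 and 10.8 CPM in WT trained libraries. The first 3 stood well apart and replicate 4 just above the controls (log2 change 0.79, adjusted p = 0.0459 without replicate 4, and 0.66 with adjusted p = 0.0688 with it). Prr18, a proline-rich gene that is no member of the list, likewise passed only without replicate 4 (log2 change 0.60, adjusted p = 0.0438). Opalin, a membrane protein of myelinating oligodendrocytes, stood at 29.3, 20.5, 21.2 and 17.6 against 9.71 to 11.8 CPM, without overlap, at an adjusted p of 0.0541 (log2 change 1.04).

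The myelin list score was 0.34, 0.04, 0.23 and −0.17 in Tau trained replicates 1 to 4, and −0.28, −0.32, −0.23, −0.22 and −0.29 in WT trained replicates 1 to 5. The controls were tight and lay below every Tau library, replicate 4 nearest to them. WT naive libraries ran from −0.43 to 0.37 and Tau naive libraries from −0.23 to 0.37, so the naive groups overlapped. The high end of the controls was WT naive replicate 5 alone. The other WT naive libraries reached at most 0.01, below Tau trained replicates 1 to 3. Tau naive replicates 1, 2 and 4 stood at 0.37, 0.33 and 0.28, and replicate 3 at −0.23. In the naive comparison all 24 members still had a log2 change above 0, against 49.8% of all genes tested, with a median of 0.24, and 3 were higher at an unadjusted p under 0.05 (4.87% of all genes).

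**Figure D4:**
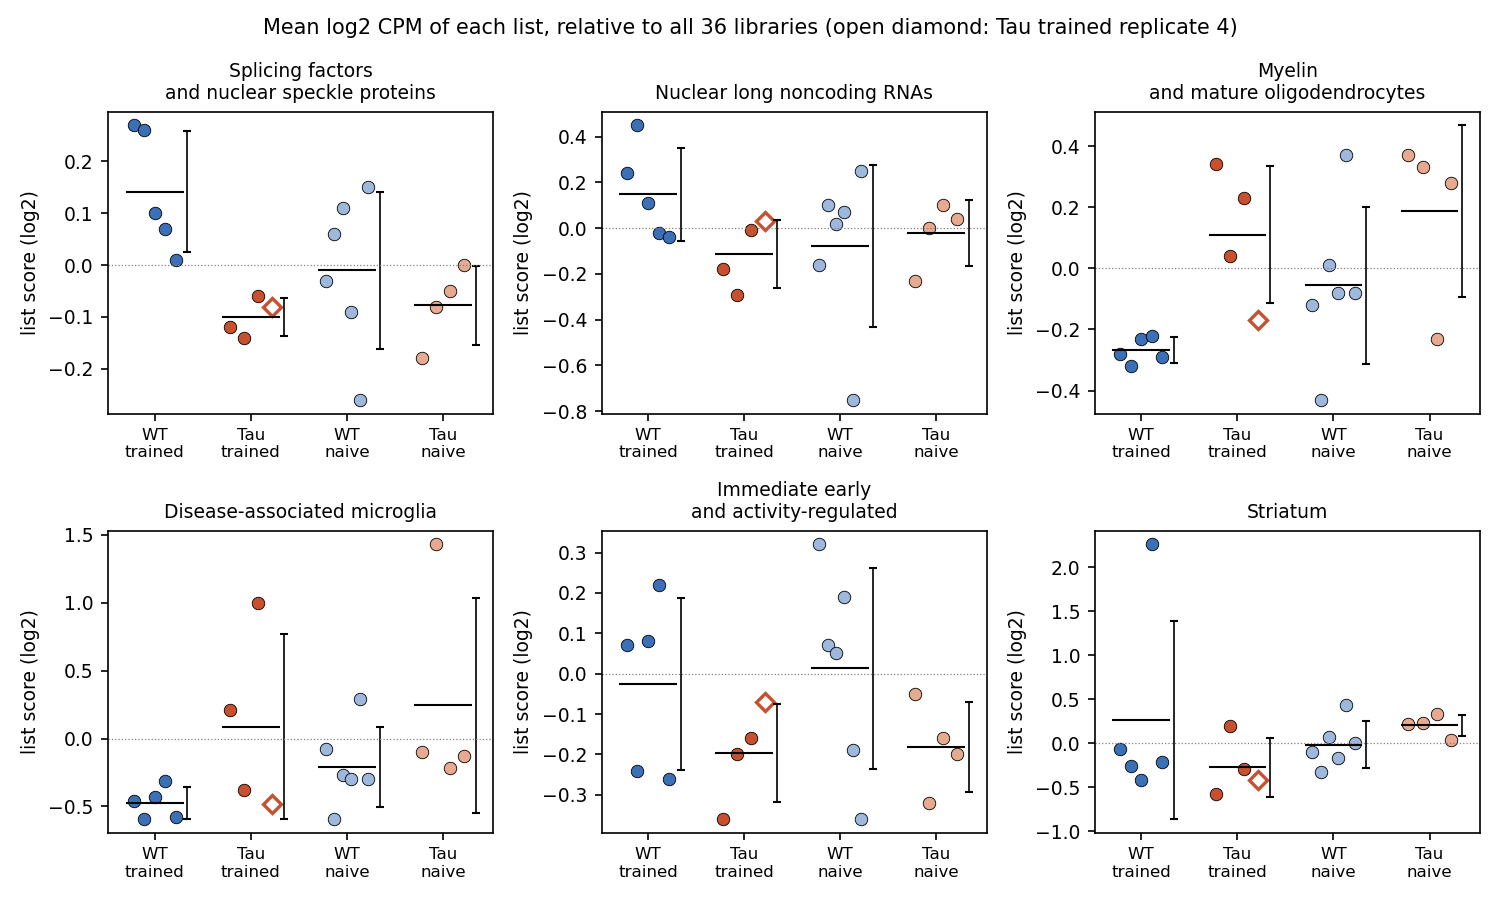
List score (vertical axis, mean log2 CPM of the members relative to all 36 libraries) for 6 gene lists in every WT trained, Tau trained, WT naive and Tau naive library. Lines are means, bars the SD, and the open diamond is the library labelled Tau trained replicate 4; WT trained replicate 4 stands alone in the striatum list at 2.26, and Tau trained replicate 3 is the highest of the trained libraries for disease-associated microglia at 1.00.

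Phf20, Zfp536, Fbxo32 and Pcyox1 also rose. Phf20, a histone-reading subunit of an acetyltransferase complex, stood at 101, 108, 95 and 85.7 CPM in Tau trained and at 68.5, 68.0, 64.4, 66.7 and 91.0 CPM in WT trained libraries. WT trained replicate 5 lay far above the other controls and inside the Tau range, so the groups overlapped (log2 change 0.44, standard error 0.0823, adjusted p = 0.015, and 0.50 with adjusted p = 0.00553 without replicate 4, edgeR's quasi-likelihood test). It was the 1 of 45 listed chromatin regulators that passed, and their median was −0.02. Zfp536, a zinc finger repressor of neuronal differentiation, stood at 34.3 to 36.3 against 25.2 to 27.5 CPM (log2 change 0.45, adjusted p = 0.0229, and 0.0438 without replicate 4). Fbxo32, a ubiquitin ligase subunit best known from muscle wasting, stood at 21.4 to 22.9 against 14.5 to 16.3 CPM (0.53, adjusted p = 0.0242, and 0.0508 without replicate 4). Pcyox1, a prenylcysteine oxidase of lysosomes, stood at 121 to 136 against 104 to 117 CPM (0.23, adjusted p = 0.0229, and 0.0181 without replicate 4). In these 3 genes the groups did not overlap.

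Fancf, of the Fanconi anaemia DNA repair complex, stood at 4.04, 3.31, 3.03 and 3.23 CPM in Tau trained and at 2.10, 2.14, 2.25, 2.54 and 2.28 CPM in WT trained libraries. The groups lay apart (log2 change 0.60, standard error 0.125, adjusted p = 0.0242, and 0.0438 without replicate 4, edgeR's quasi-likelihood test). Rbm11, a splicing regulator of brain and testis, stood at 8.39 to 9.6 against 5.71 to 7.36 CPM, and rose while the splicing factors above fell (log2 change 0.47, adjusted p = 0.0457, and 0.078 without replicate 4). Named after their values were seen, Zfp281, a zinc finger regulator of transcription, rose by 0.28, Ddx3x, an RNA helicase of translation, by 0.26, and Fmn2, an actin-nucleating formin, by 0.40. Their adjusted p-values were 0.0229, 0.041 and 0.041, and 0.0645 to 0.0882 without replicate 4.

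Microglial and interferon genes lay higher in some Tau libraries and gave no call. Of 32 disease-associated microglia genes, 30 lay above 0, with a median of 0.44 (0.55 without replicate 4 and 0.26 without Tau trained replicate 3), and 2 were higher at an unadjusted p under 0.05, a share near the 6.64% of all genes tested. In naive libraries 27 of the 32 lay above 0, with a median of 0.35. There the list score was −0.10, 1.43, −0.22 and −0.13 in Tau replicates 1 to 4 and −0.59 to 0.29 in WT. Tau naive replicate 2 alone thus lay above the naive controls. The list score was 0.21, −0.38, 1.00 and −0.48 in Tau trained replicates 1 to 4 and ran from −0.59 to −0.31 in WT trained libraries. Replicates 1 and 3 lay above all controls and replicates 2 and 4 within their range. Itgax, the integrin CD11c of activated microglia, shows the spread, at 2.47, 0.817, 7.82 and 0.177 against 0.088 to 0.49 CPM (log2 change 3.37, standard error 1.73, adjusted p = 0.356, edgeR's quasi-likelihood test). Of 30 interferon-stimulated genes tested, 27 lay above 0 with a median of 0.52, and their score was again highest in Tau trained replicate 3, at 0.77. Without that library the median was 0.18. Among naive libraries the interferon score was 0.21, 1.33, −0.41 and −0.28 in Tau replicates 1 to 4 and −0.43 to 0.20 in WT. Only Tau naive replicate 2 stood far above those controls. The naive comparison had 29 of the 30 above 0 with a median of 0.55. At an unadjusted p under 0.05, 9 were higher there (4.87% of all genes tested), against 3 in trained libraries (6.64%). Over all genes tested, 50% lay above 0 in the trained and 49.8% in the naive comparison.

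Genes that respond to neuronal activity, which are known to rise within hours of learning, gave no call. Of 41 immediate early and activity-regulated genes tested, 31 lay below 0, against 50% of all genes tested, with a median of −0.13. At an unadjusted p under 0.05, 7 were lower and 1 higher (8.6% and 6.64% of all genes tested). Fosb, an activity-induced transcription factor, stood at 6.05, 8.11, 7.48 and 8.61 CPM in Tau trained and at 12.9, 8.86, 17.7, 19.9 and 13 CPM in WT trained libraries. The groups just separated (log2 change −0.94, standard error 0.297, adjusted p = 0.126, edgeR's quasi-likelihood test). The naive libraries had a like difference without training, with a Fosb log2 change of −0.72 and a list median of −0.21, where 12 members were lower at an unadjusted p under 0.05 (4.44% of all genes tested). List scores overlapped in both states. They ran from −0.36 to −0.07 in Tau trained and from −0.26 to 0.22 in WT trained libraries. Among naive libraries they ran from −0.32 to −0.05 in Tau and from −0.36 to 0.32 in WT. Fos itself ran from 3.54 to 13.5 CPM in Tau trained and from 6.79 to 28.2 CPM in WT trained libraries, and these overlap.

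Most neuronal lists moved by little. Of 14 GABA receptor genes, 11 lay above 0, against 50% of all genes tested, with a median of 0.10, and none passed. Gabra5, the alpha 5 subunit of extrasynaptic hippocampal receptors, stood at 219, 222, 203 and 216 against 181, 174, 171, 127 and 197 CPM, without overlap (log2 change 0.34, adjusted p = 0.109, edgeR's quasi-likelihood test). Medians were 0.05 for 22 glutamate receptor genes, 0.03 for 33 presynaptic genes, 0.08 for 29 postsynaptic scaffolds and kinases, 0.05 for 32 voltage-gated channels and 0 for 19 genes of parvalbumin interneurons. Larger medians were those of 14 interneuron neuropeptide genes, at −0.17 with 11 below 0, and of 11 dentate granule cell genes, at 0.25 with 9 above 0. At an unadjusted p under 0.05, 4 of the neuropeptide genes were lower and 0 higher (8.6% and 6.64% of all genes tested). Their median was 0.01 without WT trained replicates 4 and 5. None of these members passed, and neither did any of the 28 genes of tau and its kinases and phosphatases, with a median of 0.02. In all, 48 of the 55 lists with members in the table had none past the threshold with all libraries.

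Among naive libraries, Tau differed from WT in 7 genes, all higher (0.0276%), and in 0 lower. There 2363 genes had an unadjusted p under 0.05 (9.31%). 6 of the 7 are Prnp and the 5 line transcripts. Of the 72 genes called after training that are no line transcript, 63 had the same sign in both states (87.5%, against 54.6% of all genes tested), with separate control libraries in each. The 52 that were lower in Tau than in WT trained libraries had a median log2 change of −0.52 trained and −0.14 naive. The 20 that were higher had 0.56 trained and 0.10 naive. These genes were chosen by their trained p-values, which by itself favours larger trained than naive values, so the medians are a description only.

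The difference between the trained and the naive Tau effect was tested directly and called 0 genes in edgeR's quasi-likelihood test, where 2294 had an unadjusted p under 0.05 (9.04%) and DESeq2 called 9 higher and 6 lower. Without replicate 4 it also called 0, with 2103 at an unadjusted p under 0.05 (8.28%) and 5 higher and 3 lower in DESeq2. None of the genes above is therefore shown to change in trained mice only. The smallest adjusted p-values in edgeR's quasi-likelihood test were 0.0608 for Gm38702 and 0.0927 for Gm38699, Gm31624 and Gm46386. These predicted genes were high in 8 of the 36 libraries, 3 of them Tau trained and 3 WT naive. Next came Fancf (adjusted p = 0.113, edgeR's quasi-likelihood test), which in the naive state stood at 2.16 to 2.50 CPM in Tau and 2.31 to 3.05 CPM in WT libraries. For Rrp1b the naive log2 change was 0.01 (adjusted p of the difference = 0.207), and for Dnttip2 it was 0.16 (adjusted p of the difference = 0.355). Cfap69, a ciliary protein, lay lower in Tau than in WT among trained libraries and higher among naive ones (log2 change −0.48 and 0.37, adjusted p of the difference = 0.207, edgeR's quasi-likelihood test). The 18 listed ependymal and motile cilia genes had medians of −0.15 among trained and 0.49 among naive libraries. Among naive ones all 18 lay above 0 (49.8% of all genes tested), and 11 were higher at an unadjusted p under 0.05 (4.87%). Choroid plexus genes, a list for neighbouring tissue, had scores of 0.89 to 2.26 in Tau naive and −2.47 to 1.78 in WT naive libraries. The part of neighbouring tissue in the Cfap69 values was not tested. The median difference over all genes was −0.0081.

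**Figure D5:**
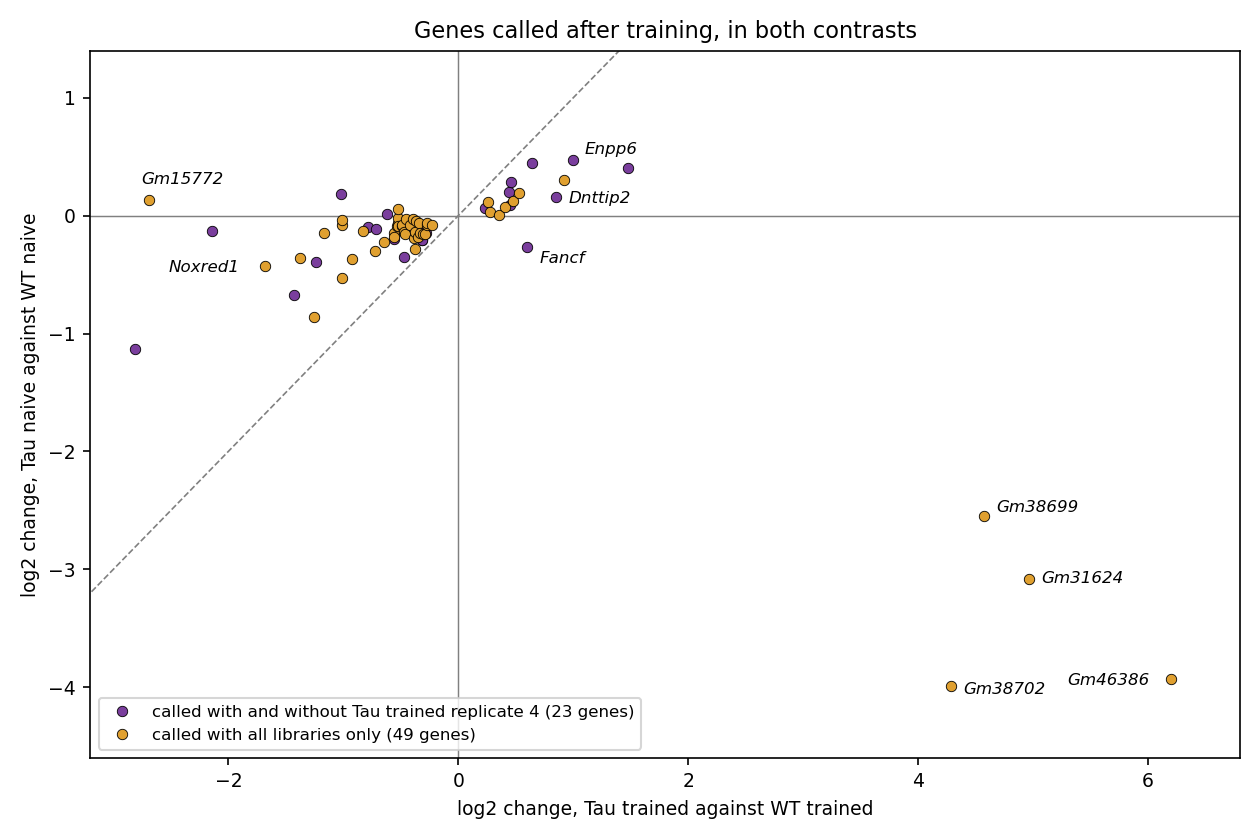
Log2 change between Tau and WT in trained (horizontal axis) and naive libraries (vertical axis) for the 72 genes called after training that are no line transcript, purple where also called without Tau trained replicate 4; the dashed line marks equal change. The genes were chosen by their trained p-values, so points nearer to 0 on the naive axis are no finding, and 4 predicted genes at the lower right changed in opposite directions.

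For 30 of the 52 genes that fell, the mean of the Tau trained libraries lay within the range of the 6 WT naive libraries (57.7%), as did the mean of the WT trained libraries for 29 of them (55.8%). For the 20 that rose, the Tau trained mean lay within that range for 5 and the WT trained mean for 15. Over all genes tested these shares were 86.6% for the Tau trained and 91.6% for the WT trained mean.

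4 of the genes counted as higher were high in some libraries and low in the rest. The predicted genes Gm38702, Gm38699, Gm31624 and Gm46386, named after their values were seen, summed to 464, 7, 345 and 399 counts in Tau trained replicates 1 to 4 and to 5, 8, 4, 10 and 10 counts in WT trained replicates 1 to 5. Tau trained replicate 2 thus lay with the controls. Over the 36 libraries, 8 had 284 to 464 counts and 28 had 3 to 25, with none between. The 8 are those 3 Tau trained libraries, 3 WT naive libraries and 2 of other groups, and none of the 4 Tau naive libraries is among them. Gm15772, called lower, had 6114 and 5425 counts in WT trained replicates 1 and 2 and 304 to 581 in all 34 others, so that call rests on those 2 controls. Without the 4 genes and the line transcripts, 16 genes rose.

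Marker lists of neighbouring tissue and other cell types varied between libraries. Striatal genes had a score of 2.26 in WT trained replicate 4 and of −0.58 to 0.20 in the other 8 trained libraries. Of the 16 listed, 14 lay below 0, against 50% of all genes tested, with a median of −0.88. Adora2a, the adenosine receptor of striatal neurons, stood at 26 CPM in WT trained replicate 4 and at 1.09 to 2.18 CPM in the others. Choroid plexus scores were −0.10 in Tau trained replicate 2, 0.59 in WT trained replicate 3 and 0.22 in WT trained replicate 4, and −2.06 to −1.68 in the other 6, so high values occurred in both groups. Endothelial genes had a score of −1.09 in WT trained replicate 5 and of −0.25 to 0.12 in the others. Pvalb, the marker of parvalbumin interneurons, stood at 2.76 CPM in the library labelled Tau trained replicate 4 and at 13 to 19 CPM in the other 8. With choroid plexus and striatum scores as covariates 36 genes were higher and 101 lower. Without WT trained replicates 4 and 5, 16 were higher and 80 lower, a setting chosen after seeing the data. Of 42 called genes followed in the fit with the covariates, 39 kept their call. Rbm11, Ddx3x and Crhr1 lost it (adjusted p = 0.0617, 0.0544 and 0.0624, edgeR's quasi-likelihood test). Among the genes followed that had no call, 5 gained one, with Aspa, Prr18 and Opalin among them. In the repeat without Tau trained replicate 4, 21 of 23 kept their call. Zfp536 and Smpd4 lost it (adjusted p = 0.0647 and 0.0606, edgeR's quasi-likelihood test). In that repeat 6 gained a call, with Acin1, Fbxo32, Noxred1, Fndc8 and Fmn2 among them. The part of the other marker differences in the single genes was not tested. For the labelled tissue, scores ran from −0.31 to 0.15 for CA1 pyramidal genes and from −0.29 to 0.43 for dentate granule cell genes, with the lowest of both in WT trained replicate 4.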

How the data were processed

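The authors deposited whole-number counts, raw, for 50559 gene symbols in 1 table, of which 41519 had a count in some library. Trimmomatic 0.39 and build mm39 are named in the submitters' processing notes. No aligner, counter, annotation or strand setting is given in the sources read here, so overlapping or antisense genes and the pseudogene Lamr1-ps1 are uncertain. Per the labels' protocols, 100 ng of RNA went into each poly(A) library and was read as 150 bp pairs.

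The deposited counts were analysed with edgeR 4.0.16 in R 4.3.3. Low genes were removed by group with filterByExpr (10 counts, total of 15), libraries were TMM-scaled, and 36 libraries entered a robust quasi-likelihood fit with a mean for each of 8 groups. The repeat without Tau trained replicate 4 used 35. P-values were adjusted by Benjamini-Hochberg over all genes tested, with a threshold of 0.05. List scores used log2 CPM with a prior count of 2. The fit was tested on simulated data.

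Members and lists were chosen with earlier results of these data known. Genes were named by a rule: Prnp, Mapt, App and the line transcripts, then in each trained fit the 8 highest and 8 lowest log2 changes and the 5 smallest p-values in each direction of called genes that have no predicted name and average 0 log2 CPM or more, the 3 smallest p-values of each test of the difference, and up to 4 members of each of 56 lists. Not every gene the rule takes is described. Mouse App did not pass (log2 change 0.16, adjusted p = 0.2). Mitochondrially encoded genes were not analysed here.

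Alternatives were RLE size factors, no filter, the replicate number as a block, library number as a covariate, DESeq2 1.42.0, voom in limma 3.58.1, marker scores as covariates, only the groups compared, and leaving out each library. Chosen after seeing the data were edgeR's older quasi-likelihood fit and leaving out WT trained replicates 4 and 5, 1 and 2, or 3, 4 and 5 together.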

Additional observations from a re-analysis of the deposited data

Results flagged for a closer look

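Of 172 groups of 4 or 5 libraries examined, 12 held a library whose gap to the nearest other was large against the range of its group (above Dixon's critical value of 0.829 for 4 and 0.71 for 5 libraries), and chance gives about 1 in 20. WT trained replicate 4 accounts for 5 of them and WT trained replicate 5 for 3.

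In WT trained replicate 4, the striatum score was 2.26, with the next control at −0.06. Adora2a stood at 26 CPM there, with the next control at 1.845, and Rgs9, a signalling regulator of striatal neurons, at 74.65 CPM, with the next at 23.78. Pdgfra, a receptor of oligodendrocyte precursors, stood at 57.77 CPM against 52.8 CPM in the next control. Ppp3ca, a calcineurin subunit, was low at 1572 CPM against 1977 CPM.

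In WT trained replicate 5, Phf20 stood at 90.98 CPM against 68.51 CPM in the next control, Fndc8 was low at 1.577 CPM against 2.93 CPM, and Bcas1, an early oligodendrocyte gene, was low at 50.94 CPM against 91.49 CPM. In WT trained replicate 1, Aspa was lowest at 9.384 CPM against 10.78 CPM.

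Among the Tau trained libraries, Mapt was highest in replicate 1 at 576.6 CPM against 542.2 CPM. Dnttip2 was lowest in replicate 4 at 19.77 CPM against 22.8 CPM. The choroid plexus score of replicate 2 was −0.1, against −1.68 in the next library.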

How the results depend on the processing

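Counts below are genes higher, then lower, in Tau. With all libraries (25 and 52) they were 82 and 162 with library number as a covariate, 174 and 379 with DESeq2, 506 and 845 with voom, 57 and 173 with only the groups compared, and 101 lower with marker scores as covariates. Without WT trained replicates 4 and 5 they were 16 and 80, without 1 and 2 they were 1 and 0, and without 3, 4 and 5 they were 54 and 247. Leaving out 1 library gave 3 to 138 higher and 0 to 222 lower. Without Tau trained replicate 4 (17 and 15) they were 11 and 7 with no filter, 47 and 70 with library number, 117 and 219 with DESeq2, 606 and 808 with voom, 51 and 71 with only the groups compared, 24 lower without WT trained replicates 4 and 5, 5 and 0 without 1 and 2, and 69 lower without 3, 4 and 5. Leaving out 1 more library gave 8 to 44 and 0 to 56. Naive counts (7 and 0) were 4 higher with marker scores, 2 higher with only the groups compared, 1 lower with DESeq2, and 3 to 9 higher and 0 to 2 lower with 1 library left out. The difference between trained and naive (0 and 0) gave 9 and 6 with DESeq2, 1 higher with only the groups compared, 2 lower without WT trained replicates 4 and 5, 2 and 3 without 3, 4 and 5, and 0 to 6 and 0 to 1 with 1 library left out. Its repeat without Tau trained replicate 4 gave 5 and 3 with DESeq2, 2 and 2 without WT trained replicates 3, 4 and 5, and 0 to 5 and 0 to 0 with 1 library left out. The causes were not tested, apart from fewer libraries where some were left out. The replicate numbers do not pair the libraries: the 4 same-numbered pairs of Tau and WT trained libraries correlated at −0.18 to 0.022, and no library correlated best with its own number. With the replicate number as a block the counts were 31 and 69 with all libraries, 16 and 22 without Tau trained replicate 4, 4 higher in naive libraries, 6 higher for the difference, and 2 and 1 for its repeat. With 1 library left out, the log2 change of Mapt ran from −0.014 to 0.036 with all libraries and from −0.0038 to 0.048 in the repeat. Among single genes the log2 change of Mapt alone reversed, to −0.024, −0.01 and −0.014 without WT trained replicates 1 and 2, WT trained replicate 1 and Tau trained replicate 1, and in the repeat to −0.014 and −0.0038 without WT trained replicates 1 and 2 and without Tau trained replicate 1. Medians of 13 of 55 lists changed sign in at least 1 alternative with all libraries and of 12 in the repeat, choroid plexus from −0.70 to 0.73 without WT trained replicates 3, 4 and 5. Over all values other than list medians, 2614 kept direction and side of the threshold, 484 lost the threshold, 196 gained it and 86 moved. Under 3 counts, at most 0.0442 CPM in a trained library, a gene's presence was not detectable at this depth.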

Other observations

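Pvalb was low in 1 further library of the 4 groups used here, WT naive replicate 3, at 2.59 CPM, where the other WT naive libraries ran from 13.1 to 20.7 CPM and Tau naive libraries from 11.8 to 16 CPM. The library labelled Tau trained replicate 4, at 2.76 CPM, was the only other low one of these 19.

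Gabra5 of the GABA receptor list, Ptgs2 of the activity-regulated list and Stxbp6 of the dentate granule cell list had log2 changes of opposite sign in trained and naive libraries, and were picked here after their values were seen. Gabra5 had a log2 change of 0.34 in trained and −0.26 in naive libraries (adjusted p of the difference = 0.248, edgeR's quasi-likelihood test). Tau naive libraries stood at 185, 142, 131 and 153 CPM and WT naive libraries at 157 to 202 CPM, so the naive groups overlapped while the trained ones did not. Ptgs2, the inducible cyclooxygenase of active neurons, had log2 changes of 0.33 and −0.35 (adjusted p of the difference = 0.329, edgeR), and Stxbp6, a regulator of SNARE complexes, 0.29 and −0.27 (adjusted p of the difference = 0.368). None passed in either state over all genes. The dentate granule cell list as a whole also changed sign, with medians of 0.25 in trained and −0.15 in naive libraries. None of its 11 members passed in either state.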
